A study of Mus musculus with 6 samples.

Results

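The cell cycle genes described here are 35 genes chosen by name, covering G1 cyclins and their kinases, inhibitors of those kinases, DNA replication enzymes, and proteins of the G2 and M phases. Probe sets with a matching gene symbol were found for 34 of the 35, out of 18193 genes named on the array, and Ccnb1, the cyclin B1 gene, had no value. The samples were neutrophils of peripheral blood, taken from individual mice on a C57 background by negative magnetic selection and held for 4 h in 3% oxygen. There were 3 mice labelled phd3 null, which lack the prolyl hydroxylase PHD3 encoded by Egln3, and 3 wild-type mice, all kept in hypoxia. Same-numbered samples of both genotypes share a code in their source labels. The labels do not state which part of the gene was removed or the age of the mice. Each mouse gave 1 Affymetrix array with MAS5 signals, a summary of the probes of each probe set on a linear scale, scaled alike on every array.

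A cell that divides passes from G1, through DNA synthesis in S phase, to G2 and mitosis. Cyclins D and then E switch on the kinases CDK4, CDK6 and CDK2, which release E2F transcription factors from the RB proteins, and E2F drives the genes of DNA synthesis. Cyclins A and B with CDK1 carry the cell through mitosis. Mature neutrophils in blood have left the cycle for good, and division is a property of their precursors in bone marrow, so many of these genes are usually low in blood neutrophils while inhibitors such as p21, p27 and p19INK4d are kept.

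The promoters of these genes were searched for the letters of elements known for cell cycle control. Only exact letters were counted, so a window without a match may still carry such an element. RefSeq promoter windows of 300 bases, from 250 before to 50 after the start in mouse build GRCm38.p6, matched 28 of the 35 genes with 30 windows. The search took both strands; no motif contains another, though neighbouring matches may overlap at their ends. The CHR element of mitotic genes, TTTGAA, was in 10 of 30 windows (33.3%) against 17.9% of all 32851 windows. The CCAAT box, CCAAT, was in 20 (66.7%) against 37.4%. The E2F motif, searched as TTTGGCGC, TTTCCCGC, TTTCGCGC and TTTGCCGC, was in 3 (10%) against 2.26%, namely Cdk1, Cdk2 and Mcm5. All 10 CHR matches lay among the 20 windows of replication and mitosis genes, which also held 16 of the CCAAT matches, and 0 lay among the 10 windows of G1 cyclins, their kinases and the inhibitors. The 3 sequences below are the 250 bases before the start of Ccne1, Kif11 and Cdk1. Ccne1 is the cyclin E1 gene and Kif11 a mitotic kinesin gene, and the groups did not overlap for either. Cdk1 is the mitotic kinase gene that carries all 3 motifs. The sequences are written on the gene's own strand with motif matches in capitals. ATTGG and TTCAAA are the CCAAT box and the CHR read from the other strand. None of the letters searched is in the Ccne1 stretch, which does not show that the promoter lacks these elements.
Ccne1, chr7:38107491-38107740, minus strand: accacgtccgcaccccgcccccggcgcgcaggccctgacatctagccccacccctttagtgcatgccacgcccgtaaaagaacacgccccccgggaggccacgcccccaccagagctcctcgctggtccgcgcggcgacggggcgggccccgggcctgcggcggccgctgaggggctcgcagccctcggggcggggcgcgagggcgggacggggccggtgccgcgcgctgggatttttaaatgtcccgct
Kif11, chr19:37376132-37376381, plus strand: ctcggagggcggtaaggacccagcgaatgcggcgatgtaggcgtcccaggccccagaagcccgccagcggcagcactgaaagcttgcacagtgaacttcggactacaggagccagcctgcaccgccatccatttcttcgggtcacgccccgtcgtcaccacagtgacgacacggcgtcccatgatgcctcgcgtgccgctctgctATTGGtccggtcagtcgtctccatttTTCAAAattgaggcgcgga
Cdk1, chr10:69352913-69353162, minus strand: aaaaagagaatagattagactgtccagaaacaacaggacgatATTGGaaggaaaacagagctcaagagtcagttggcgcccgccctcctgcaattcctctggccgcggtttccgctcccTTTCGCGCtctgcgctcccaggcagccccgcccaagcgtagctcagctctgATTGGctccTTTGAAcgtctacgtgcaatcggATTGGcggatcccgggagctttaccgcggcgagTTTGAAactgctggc

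The arrays were checked before the genotypes were compared. Signal of Egln3, the targeted gene, was 29.6 to 87.2 in phd3 null and 327 to 2088 in wild-type samples. Of 10 neutrophil markers 8 were measured, with S100a8 at 11102.8 or more on every array. Cxcr2 read 25.6 in phd3 null and 227 in wild type on the arrays of number 3, against 558.9 to 978.9 on the other 4. Mmp8 and Csf3r were also lowest on both of those arrays, Il1r2 was highest on both, and the remaining neutrophil markers did neither. The arrays of number 3 stood apart in both genotypes, their median correlation with the remaining arrays being 0.739 and 0.788 against 0.838 to 0.866. Their 6 B cell markers summed to 3213.7 in phd3 null and 2712.1 in wild type, against 302.1 to 603.6 on the other 4 arrays, and none of these markers was at 0. Their 6 monocyte markers summed to 5009.8 and 5905.6, against 16726.3 to 18604.7 on the other 4. These sums were mainly Csf1r and F13a1. Fcgr1 was highest on the arrays of number 3, at 160.1 and 162.6 against 72.8 to 128.8, and Ccr2 and Cx3cr1 in wild-type sample 3 exceeded wild-type sample 1. The median signals of these arrays were the highest, at 64.2 and 60.3 against 49.4 to 52.1. Of the 10 neutrophil precursor markers measured 7 passed the filter on low values, among them the early granule gene Ctsg at 36 to 103.1 and Chil3 at up to 5269.1, while the early granule genes Elane, Mpo and Prtn3 did not (2.7 to 161.6). The 10 summed to 4196.9 to 7322.5 in phd3 null and 5471.5 to 7399.9 in wild type. Natural killer cell markers had lower mean log2 values in phd3 null in 8 of 8 tested cases, with sums of 594.9 to 2883.5 against 1431.3 to 6120.8. Of the 8, 5 were lower in all pairs, as were 13% of genes tested, while the groups overlapped for each. Ncr1 was higher in 2 of 3 pairs, and Gzma had the highest signal of the 8 on every array. Xist, which coats the silent X chromosome in female cells, gave 203.4, 72.9 and 98.5 in phd3 null samples and 292, 1180.4 and 1061 in wild-type samples. Eif2s3y, a gene of the Y chromosome, gave 576.2, 585.4 and 144.3 against 558.4, 54.0 and 38.7, so wild-type sample 1 had a Y-linked signal like that of phd3 null samples 1 and 2. The part of these cells, or of the sex of the mice, in the results on cell cycle genes was not tested. In such bulk samples, fewer cells of a type and less RNA per cell cannot be told apart.

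Among S, G2, M and spindle genes 10 of the 17 measured had a probe set above the filter on low values and 7 had none. A probe set is called dim here where its mean log2(signal + 16) over the 6 arrays lay below 5.90, the median of all 45037 non-control probe sets, which matches a signal of 43.6. Of the 75 probe sets of the 34 genes, 37 (49.3%) were dim, close to the share that a median sets by construction. Dim ones made up 9 of 14 among S, G2 and M cyclins and mitotic kinases, 10 of 18 among spindle and chromosome proteins, 8 of 14 in DNA replication, 9 of 24 among G1 cyclins and their kinases, and 1 of 5 among inhibitors. Every probe set was dim for 8 of the 34 genes (23.5%), against 39.8% of all 18193 named genes: Ccnb2 and Cdk1 (cyclin B2 and its kinase), Aurkb (Aurora B) with its partner Birc5 (survivin), the checkpoint kinase gene Bub1b, the mitotic kinesins Kif20a and Cenpe, and the thymidine kinase gene Tk1. Their 12 probe sets ranged from 1.2 to 95.7, and 63 of 72 values lay below the median of their array. Their differences between genotypes ran from -0.96 to 0.39 on the log2(signal + 16) scale, 4 higher and 8 lower in phd3 null. No detection calls were used, so a dim probe set may or may not read its transcript.

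**Figure D1:**
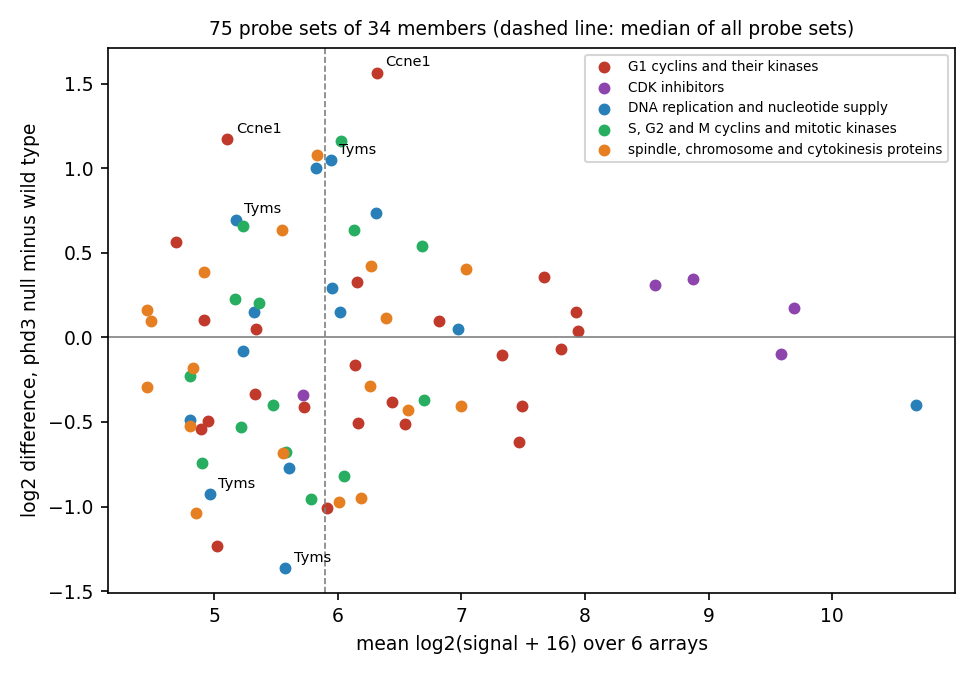
Each point is 1 of the 75 probe sets of the 34 measured genes, by its mean log2(signal + 16) over 6 arrays (horizontal) and its log2 difference, phd3 null minus wild type (vertical), coloured by role; the dashed line is the median of all non-control probe sets, 5.90. The 37 dim probe sets lie left of the line, and both Ccne1 probe sets lie above 1 while the 4 Tyms probe sets lie on both sides of 0.

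The genotypes were compared gene by gene, each gene being read by its brightest probe set, and 26 of the 35 genes passed the filter at the median. For 7 of the 26 the mean of 1 genotype lay under that filter, so they passed through the other: wild type was under it for Ccne1, Bub1, Aurka, Rrm2 and Tyms, and phd3 null for Kif11 and Cdk4. Counts over the 26 genes, and the differences, intervals and p of these 7, are therefore a description. No cell cycle gene passed the test. In limma over 10960 genes 0 of the 26 had an adjusted p under 0.05, as did 0% of all genes, and with the replicate number as a block the counts were 0 of 26 and 0.0182%. At an unadjusted p under 0.05 there was 1 of 26, Ccne1, in either fit, against 1.74% of all genes without the block and 5.62% with it. Values were higher in phd3 null for 18 of the 26 genes and lower for 8, and the median log2 difference was 0.16, beside 49.4% higher and a median of -0.01 over all genes tested. This count moved with the choice of probe set. Over all 75 probe sets 35 had higher and 40 had lower values (median -0.10), and when a gene's probe sets were averaged 5 of the 16 genes left were higher, with a median of -0.18. Medians in same-numbered pairs 1 to 3 were 0.52, 0.05 and -0.36. Without wild-type sample 1 the count was 12 of 26 and the median -0.11, and without wild-type sample 3 they were 19 and 0.45. Without both arrays of number 3 they were 18 and 0.36.

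**Figure D2:**
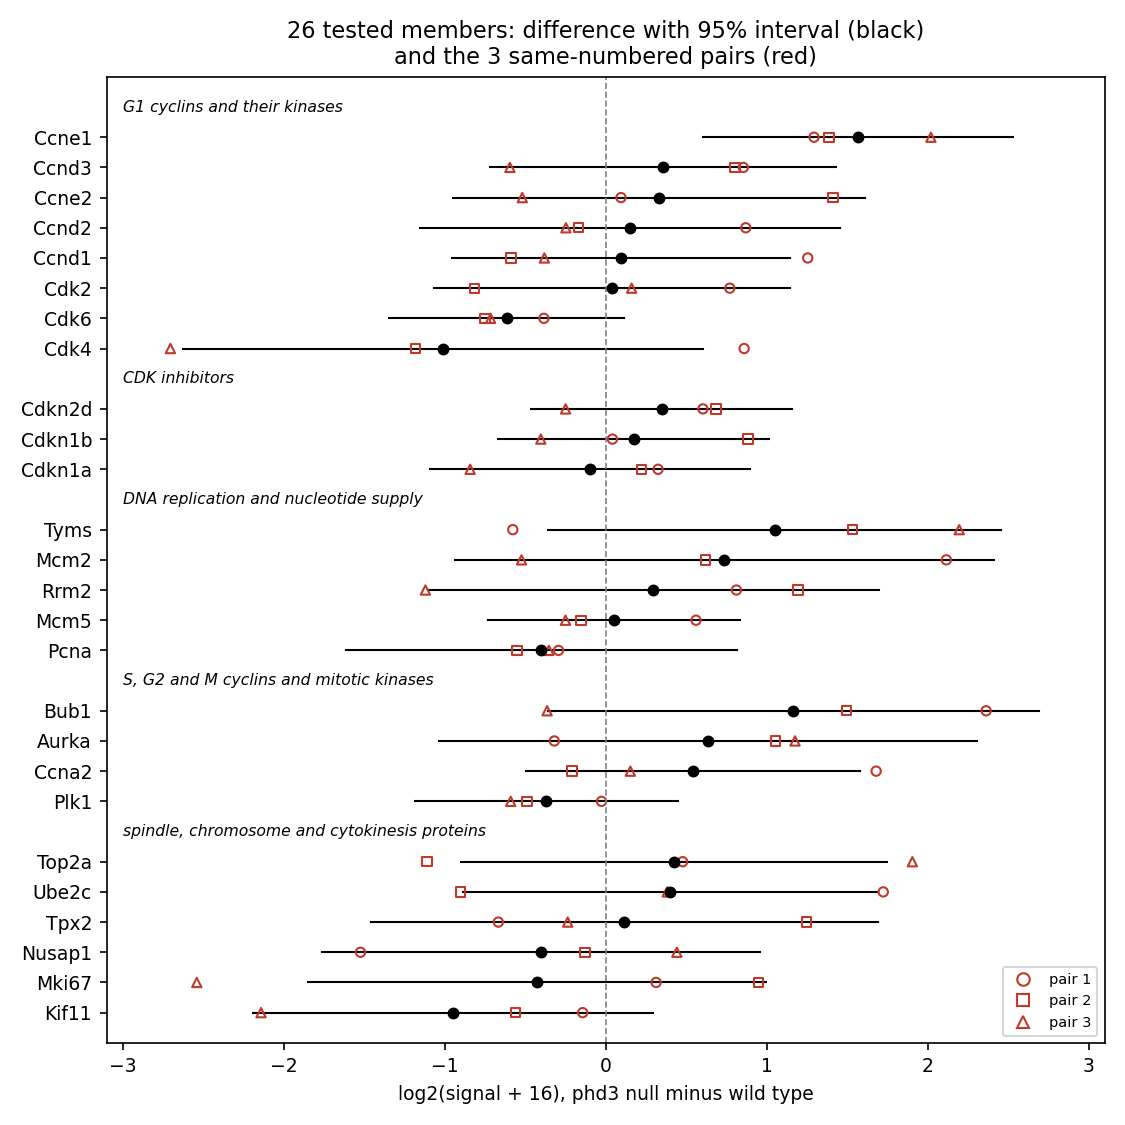
For each of the 26 tested genes, the black point and line give the difference in log2(signal + 16), phd3 null minus wild type (horizontal), with its 95% interval from limma, and open red symbols give the 3 same-numbered pairs. Ccne1 is the gene whose interval lies wholly above 0, from 0.60 to 2.53, and the pairs of most other genes fall on both sides of 0. Ccne1 passed the filter through phd3 null and was chosen with its difference known, so its interval is a description. Its adjusted p in limma was 0.9996.

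Cyclin E1 had the largest difference of the 26 genes as tested and under 10 of the 15 alternatives. Bub1 exceeded it with array quality weights (1.54 against 1.43), without phd3 null sample 3 (1.80 against 1.35) and without both arrays of number 3 (1.93 against 1.34), and Mcm2 without wild-type sample 3 (1.58 against 1.56). With averaged probe sets Ccne1 was not tested. The replicate block, no filter and the fit over every probe set leave each gene's difference as tested, so they could not change this order. Ccne1 signal reached 118.6, 87.1 and 168.9 on the phd3 null arrays, in the order of sample numbers used throughout, against 38.9, 23.4 and 29.6 on the wild-type arrays. All phd3 null samples lay above all wild-type samples, as in 3.9% of the genes tested. Group means were 124.9 ± 41.3 and 30.6 ± 7.80 (SD, n = 3). All 3 wild-type values lay below the filter's 43.6 and below the median of their array, so the gene passed the filter through phd3 null, the wild-type level is not shown to be above background and no fold is given. The difference, its p and its rank are given as a description. The log2 difference was 1.57 (SE 0.43, 95% interval 0.60 to 2.53), higher in 3 of 3 pairs by 1.29, 1.39 and 2.02, as were 12.6% of genes. It did not pass in limma (unadjusted p = 0.00489, adjusted p = 0.9996; with the block unadjusted p = 0.00539, adjusted p = 0.756). An exact two-sided permutation test over the 6 arrays gave p = 0.1, the smallest that 3 against 3 can give. Ccne1 had the 7th smallest p of all genes tested, or the 77th with the block, and it was chosen for description with its difference already known. This probe set ends in _x_at, a suffix that Affymetrix gives to sets whose probes may also match other transcripts, as do 7 of the 75.

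The other Ccne1 probe set, without that suffix, was dim. It read 42.4, 12.1 and 68.6 in phd3 null and 3.4, 5.2 and 13.3 in wild type. It was higher in 3 of 3 pairs (log2 difference 1.18, SE 0.58, 95% interval -0.06 to 2.41 in the fit over every probe set), and phd3 null sample 2 lay below wild-type sample 3, so the groups overlapped by that value. Cyclin E2, encoded by Ccne2, activates the same kinase. Its signal was 72.2, 61.7 and 58.6 in phd3 null and 66.6, 13.2 and 90.8 in wild type, with the phd3 null values inside the wild-type range. The log2 difference was 0.33 (SE 0.57, 95% interval -0.95 to 1.61), and the pairs gave 0.09, 1.41 and -0.52.

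**Figure D3:**
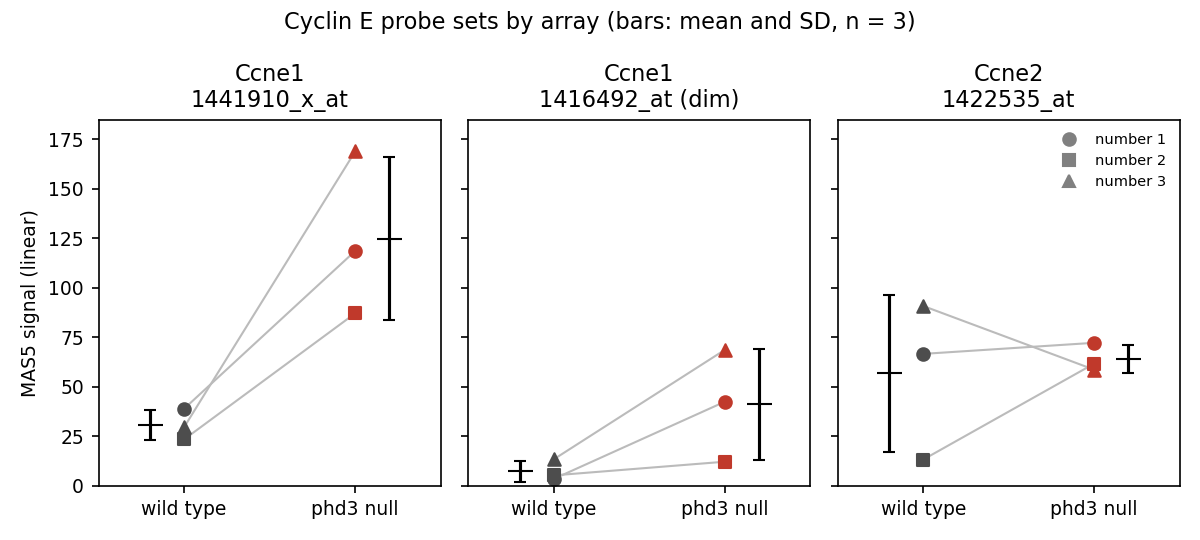
MAS5 signal on a linear scale (vertical) in the 3 wild-type and 3 phd3 null samples for the brighter and the dim Ccne1 probe set and for Ccne2; symbols mark the sample number, grey lines join same-numbered samples, and bars give the mean and SD (n = 3). The brighter Ccne1 probe set runs from 87.1 to 168.9 in phd3 null and from 23.4 to 38.9 in wild type, and the Ccne2 groups overlap.

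Of the kinases that partner G1 cyclins, Cdk6 and Cdk4 had lower mean log2 values in phd3 null. CDK6 pairs with D-type cyclins, and Cdk6 signal was 123.5, 106.1 and 156.0 in phd3 null and 166.1, 189.3 and 266.3 in wild type. All phd3 null values were below all wild-type values, as in 3.02% of genes tested, and pairs differed by -0.38, -0.75 and -0.72. The log2 difference was -0.62 (SE 0.33, 95% interval -1.35 to 0.12), and it did not pass in limma (unadjusted p = 0.0896, adjusted p = 0.9996). Among the other Cdk6 probe sets 1 differed by -0.38 and the dim one by 0.11. Cdk4, which encodes the other partner of cyclins D, was at 60.6, 36.3 and 3.0 in phd3 null mice against 26.2, 102.7 and 107.8 in the wild-type mice. These groups overlapped, with a log2 difference of -1.01 (SE 0.72, 95% interval -2.62 to 0.61) and pairs from -2.70 to 0.86. Without phd3 null sample 3 it was -0.43, and without wild-type sample 1 it was -1.52. Its brightest probe set barely passed the filter, at a mean log2 of 5.91.

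By the brightest probe set the 3 D-type cyclins had slightly higher values in phd3 null, with intervals that span 0. Ccnd1, the cyclin D1 gene, had a log2 difference of 0.10 (SE 0.47, 95% interval -0.95 to 1.15), and its dim probe sets gave 0.05 and 0.56. Ccnd3, the cyclin D3 gene, was at 292.6, 153.2 and 217.3 in phd3 null mice against 154.6, 80.9 and 336.5 in the wild-type mice. The groups overlapped (log2 difference 0.35, SE 0.48), and its other probe sets, neither of them dim, differed by -0.51 and -0.51. Ccnd2, the cyclin D2 gene, had 7 probe sets, of which 1 was higher and 6 lower in phd3 null. The brightest read 222.8, 136.8 and 445.7 in phd3 null and 114.7, 155.9 and 531.9 in wild type, with a log2 difference of 0.15 (SE 0.58) and the highest values on the arrays of number 3. Across the 5 Ccnd2 probe sets that were not dim, differences ran from -0.40 to 0.15. A dim one read 5.5, 2.8 and 7.6 against 17.2, 30.5 and 64.6, a log2 difference of -1.24 (SE 0.53). This is the other probe set among the 75 with an unadjusted p under 0.05 in the fit over every probe set, where the lowest adjusted p of the 75 was 0.9997.

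For inhibitors of cyclin-dependent kinases, 4 of 5 probe sets lay above the median of every array, and both genotypes overlapped for all 3 genes. Cdkn1a encodes p21, which blocks CDK2 complexes and is induced by p53. Its signal was 1233.1, 845.2 and 366.8 in phd3 null and 981.5, 722.5 and 670.0 in wild type, with the phd3 null values on both sides of the wild-type ones. The log2 difference was -0.10 (SE 0.44, 95% interval -1.09 to 0.90), and the other probe set gave 0.31 (SE 0.31). Cdkn1b, the p27 gene, was at 810.0, 1413.7 and 559.1 in phd3 null mice against 786.2, 758.9 and 744.3 in the wild-type mice. Phd3 null sample 2 stood above the rest, and the log2 difference was 0.17 (SE 0.37, 95% interval -0.67 to 1.02). Cdkn2d, the gene of p19INK4d, which inhibits CDK4 and CDK6, was at 513.1, 477.3 and 548.2 in phd3 null mice against 332.0, 290.7 and 654.6 in the wild-type mice. Wild-type sample 3 was the highest, so the groups overlapped, with a log2 difference of 0.35 (SE 0.36, 95% interval -0.46 to 1.16).

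DNA replication genes varied widely between arrays. Pcna, the sliding clamp of DNA polymerase, was at 998.5, 979.5 and 2868.3 in phd3 null mice against 1226.9, 1441.7 and 3666.8 in the wild-type mice. All 3 pairs had the lower value in the phd3 null mouse (-0.29, -0.55 and -0.35), as were 13% of genes tested, while the groups overlapped because both arrays of number 3 were high. The log2 difference was -0.40 (SE 0.54, unadjusted p = 0.479 in limma, and SE 0.21, unadjusted p = 0.0693, adjusted p = 0.884 with the block). Tyms, the thymidylate synthase gene, was at 34.8, 89.1 and 114.1 in phd3 null mice against 59.8, 20.3 and 12.4 in the wild-type mice. It had a log2 difference of 1.05 (SE 0.63, 95% interval -0.36 to 2.46). Its 4 probe sets did not go the same way, the 3 dim ones giving -1.36, 0.70 and -0.93. Mcm2 encodes a subunit of the replicative helicase, and its signal was 70.7, 73.6 and 122.1 in phd3 null and 4.0, 42.4 and 182.4 in wild type. Its groups overlapped, with a log2 difference of 0.74 (SE 0.75), and its dim probe set gave -0.77.

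The tested mitotic kinase genes and Ccna2 overlapped between genotypes. The dim Bub1b did not, its brightest probe set reading 38.8, 36.6 and 5.4 in phd3 null and 42.3, 68.9 and 75 in wild type. No share over all dim probe sets was counted beside it, so this is not read as a result. Bub1, a spindle checkpoint kinase gene, was at 116.2, 158.9 and 24.1 in phd3 null mice against 9.7, 46.1 and 35.6 in the wild-type mice. Phd3 null samples 1 and 2 were above every wild-type sample and sample 3 was not (log2 difference 1.16, SE 0.68, 95% interval -0.36 to 2.69), and the dim probe set gave -0.67. Without phd3 null sample 3 the difference was 1.80, and without phd3 null sample 2 it was 0.74. Aurka, the Aurora A kinase gene, was at 53.5, 30.1 and 190.9 in phd3 null mice against 70.7, 6.2 and 75.6 in the wild-type mice, a log2 difference of 0.64 (SE 0.75). Cyclin A2 acts in S phase and at the entry to mitosis, and Ccna2 was at 220.2, 78.3 and 68.7 in phd3 null mice against 57.7, 93.1 and 60.2 in the wild-type mice. Only phd3 null sample 1 exceeded the wild-type range (log2 difference 0.54, SE 0.46), and the other probe set, also not dim, gave -0.82 (SE 0.63).

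Spindle and chromosome genes gave differences of both signs. Kif11 encodes the kinesin that pushes spindle poles apart, and its signal was 69.7, 51.8 and 8.8 in phd3 null and 78.6, 84.1 and 93.4 in wild type. All phd3 null values lay below all wild-type values, as in 3.02% of genes tested. Kif11 passed the filter through wild type, so its log2 difference of -0.95 (SE 0.55, 95% interval -2.19 to 0.29) is a description. It did not pass (unadjusted p = 0.119, adjusted p = 0.9996 in limma). A dim Kif11 probe set gave the opposite, at 72.3, 51.0 and 79.7 against 2.3, 47.3 and 36.1 (log2 difference 1.08, SE 0.67), also without overlap, and the third, also dim, gave -0.68 (SE 0.65). Without phd3 null sample 3 the difference of the brightest was -0.41. Mki67, the gene of the proliferation marker Ki-67, had 1 probe set, at 80.9, 89.3 and 37.5 in phd3 null mice against 62.0, 38.6 and 295.2 in the wild-type mice. Its difference of -0.43 (SE 0.64) went with wild-type sample 3, and without both arrays of number 3 it was 0.63. Top2a, the topoisomerase gene needed to separate chromosomes, was at 85.7, 44.6 and 100.5 in phd3 null mice against 57.0, 114.8 and 15.1 in the wild-type mice (log2 difference 0.42, SE 0.59). Its second probe set, also not dim, was at 51.6, 57.3 and 3.6 against 61.1, 79.9 and 83.1, lower without overlap (log2 difference -0.97, SE 0.65). For this probe set and the dim Kif11 one no share over all probe sets was counted, so non-overlap is not read as a result. Tpx2, a spindle assembly factor gene, read 14.1, 156.0 and 112.6 against 31.8, 56.4 and 135.5 (log2 difference 0.12, SE 0.70), with overlap. Its second probe set that was not dim gave -0.29.

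The 7 tested genes outside the rule for values per array were Ccnd1, Cdk2, Mcm5, Rrm2, Plk1, Ube2c and Nusap1, and their differences ran from -0.40 to 0.40 with SE from 0.35 to 0.62. In all, 1 of the 26 genes was higher with no overlap between groups (Ccne1, beside 3.9% of all genes tested) and 2 were lower (Cdk6 and Kif11, beside 3.02%). Among the 75 probe sets, dim ones included, 8 did not overlap, 2 higher and 6 lower. The share over all probe sets was not counted, so this count is not read as a result. Probe sets of the same gene seldom pointed the same way. Of the 23 genes with several probe sets 7 had all differences of the same sign, or 30.4%, against 37.4% of the 9010 such genes on the array. With dim probe sets left out these were 2 of 8 genes (Mcm5 and Cdk6) and 42.8% of 4292. Ccne1 was among the 7, with Bub1b, Aurka, Mcm5, Nusap1, Ccnd1 and Cdk4. The spread within genotypes was wide, with a median within-group SD of 0.73 log2 units over the 26 genes and 0.53 over all genes tested.

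Several of these genes were highest or lowest on the arrays of number 3. Both arrays of number 3 read above the other 4 for 8 of the 26 genes (30.8%, against 18.5% of all genes tested), namely Aurka, Ccnd1, Ccnd2, Cdk2, Cdkn2d, Mcm2, Nusap1 and Pcna. Cdk2, which encodes the kinase bound by cyclin E, was at 246.3, 118.8 and 418.7 in phd3 null mice against 137.7, 221.5 and 372.7 in the wild-type mice. Its log2 difference between genotypes was 0.04 (SE 0.49). They read below the other 4 for Cdkn1a and Cdkn1b (7.69%, against 16.9% of all genes). These are the arrays on which B cell markers summed to 2712.1 and 3213.7, against at most 603.6 elsewhere. Monocyte markers, mainly Csf1r and F13a1, summed to 5905.6 and 5009.8 on them, against 16726.3 or more elsewhere, while Fcgr1 was highest on them. The median signals of these arrays were also the highest. The part of those cells, or of the array medians, in these signals was not tested. For Ccne1 the phd3 null array of number 3 was the highest (168.9) and the wild-type one lay between the other wild-type values (29.6). Its dim probe set was highest on number 3 in both genotypes, at 68.6 and 13.3.

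**Figure D4:**
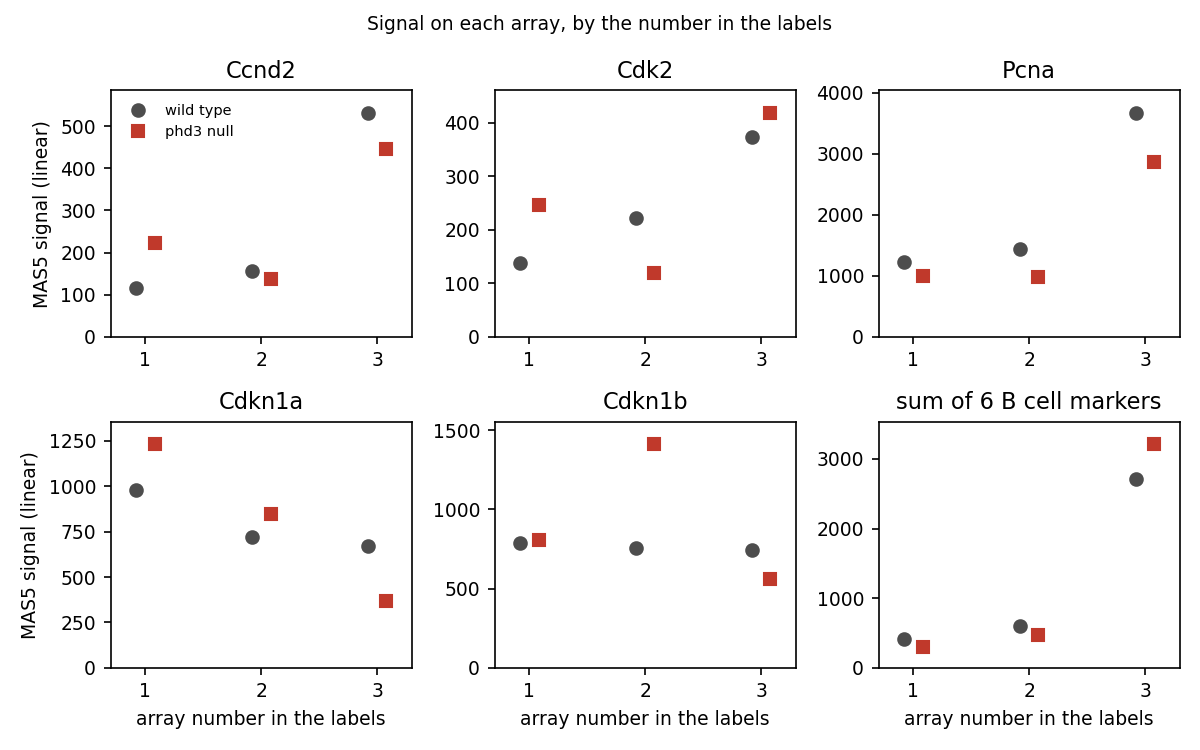
MAS5 signal on a linear scale (vertical) on each array by the sample number in the labels (horizontal) for Ccnd2, Cdk2, Pcna, Cdkn1a, Cdkn1b and the sum of 6 B cell markers; grey circles are wild type and red squares phd3 null. Number 3 is highest in both genotypes for Ccnd2, Cdk2, Pcna and the B cell markers, and lowest for Cdkn1a and Cdkn1b.

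Other genes of the same pathways were read from 5 further lists with 57 genes tested. Values in phd3 null were higher for 25 and lower for 32 (median -0.06), and 0 passed in limma with or without the block. Among E2F, DP and RB genes 5 of 10 were higher. E2f1, which encodes an activator of S phase genes, was at 104.4, 49.6 and 124.9 in phd3 null mice against 1.7, 68.4 and 53.7 in the wild-type mice. The groups overlapped, with a log2 difference of 1.14 (SE 0.67). Its wild-type mean log2 lay under the filter, so E2f1 passed through phd3 null and its difference is a description. Rbl1, the gene of the RB relative p107, differed by -0.61 (SE 0.41). Genes that control cyclin E and CDK2 were higher in 3 of 11 cases, with differences from -0.35 to 0.22. Fbxw7 encodes the ubiquitin ligase subunit that marks cyclin E for destruction, and it was at 177.8, 162.6 and 177.7 in phd3 null mice against 118.1, 181.3 and 145.3 in the wild-type mice (log2 difference 0.22, SE 0.31). Skp1, a subunit of the same ligase, differed by -0.35 (SE 0.48).

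Replication licensing genes were higher in 5 of 13 cases, with Rrm1, a ribonucleotide reductase subunit gene, at -0.39 (SE 0.37) and Fen1, the flap endonuclease gene, at 0.39 (SE 0.38). Other mitotic genes were higher in 10 of 15. Incenp, the scaffold of the Aurora B complex, was at 156.4, 142.9 and 93.8 in phd3 null mice against 212.4, 256.2 and 180.3 in the wild-type mice, without overlap. It differed by -0.67 (SE 0.33) and was the gene of the 57 below 0.05 before adjustment in limma with the block (unadjusted p = 0.0356, adjusted p = 0.880). Bub3, a checkpoint gene, was also lower without overlap, at 580.2 ± 31.1 against 712.2 ± 52.2 (SD, n = 3). These were 2 of the 57 genes, beside 3.02% of all genes tested that were lower without overlap. Cdc20, an activator of the anaphase-promoting complex, differed by 0.58 (SE 0.39), higher in 3 of 3 pairs. Antiproliferative genes were higher in 2 of 8 cases, Cdkn1c (p57) by 1.15 (SE 0.72) and Ccng2 (cyclin G2) by 0.46 (SE 0.33). Cdkn1c, like E2f1, passed the filter through phd3 null, its wild-type mean log2 lying under it.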

How the data were processed

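Total RNA was labelled with biotin by the Affymetrix protocol, per the labels, and the deposited values are linear signal intensities that the authors made with MAS5, per the submitters' processing notes, with no version named. The trimmed mean of every array was 100, and the number of arrays limits the precision. Of 45101 probe sets 64 controls were left out; 34945 had 1 gene symbol, 932 several and 9160 none in the annotation table used, and 18032 of 18193 genes matched RefSeq (GRCm38.p6). Each gene was read by its probe set of highest mean log2(signal + 16), and genes below the median were not tested. Genotypes were compared with limma 3.58.1 in R 4.3.3 (trend, two-sided, Benjamini-Hochberg over all genes tested), and the code was tested on simulated data. The added 16 makes differences of dim genes too small. Taking each array's departure from its genotype mean, same-numbered arrays correlated at 0.292, 0.151 and 0.474. They also share a code in their source labels and were read as pairs. The correlations alone do not settle the pairing, since 1 unmatched pair (phd3 null 2 with wild type 1) correlated at 0.177, above the 0.151 of pair 2. The SE, intervals and p given first come from the fit without the number, which leaves the pairing out, and the number as a block is an alternative.

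The genes and lists were chosen with earlier results of these data known. Values per array are given for Ccne1, Ccne2, genes with an unadjusted p under 0.05, the 3 genes of largest difference in each role, and genes whose probe sets that are not dim differ in sign; for other pathway genes, the 2 of smallest p in each list are named. Bub3, Cdk2, the dim Ccnd2 and Kif11 probe sets and the array-number pattern were singled out after the values were seen. Alternatives were the replicate block, pseudocounts of 1 and 64, quantile normalization, no filter, averaged or all probe sets, array quality weights, and leaving out each array or both of number 3.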

Additional observations from a re-analysis of the deposited data

How the results depend on the processing

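Ccne1 was higher in phd3 null under all 14 alternatives that gave it a value, from 0.98 (pseudocount of 64) to 1.97 (pseudocount of 1), and from 1.35 to 1.77 when an array was left out; adjusted p ran from 0.756 to 1. With its probe sets averaged it fell below the filter. The replicate block, no filter and the fit over every probe set read the same probe set in the same groups. They left its difference at 1.57 by construction. All its phd3 null values lay above all its wild-type values, so pseudocounts, weights and leaving out arrays could not turn its sign either. No cell cycle gene was called under any of the 15 alternatives. Over all genes, 2 were called with the replicate block, 1 without wild-type replicate 3 and 1 without both arrays of number 3; when 1 array was left out the count ran from 0 to 1. The block changed no other call.

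The number of higher genes was 5 with averaged probe sets. Direction held under every alternative that gave a value for 9 of 26 genes and turned under at least 1 for 17. The replicate block, no filter and the fit over every probe set could not turn it, since they leave the differences unchanged. For Ccne1, Cdk6 and Kif11, whose groups did not overlap, pseudocounts, weights and left-out arrays could not turn it either. With averaged probe sets it turned for Ccna2 (-0.14), Mcm2 (-0.017), Ccnd2 (-0.31), Ccnd3 (-0.22), Cdk2 (-0.23), Cdkn1a (0.11) and Cdkn1b (-0.083). With array quality weights it turned for Mki67 (0.12), Top2a (-0.075), Ccnd1 (-0.006), Cdk2 (-0.23) and Cdkn1a (0.12), and with quantile normalization for Tpx2 (-0.003). Without both arrays of number 3 it turned for Mki67 (0.63), Top2a (-0.32), Cdk2 (-0.023) and Cdkn1a (0.27). With 1 array left out the differences ran from -0.031 to 1.097 for Aurka, -0.38 to 0.44 for Ccnd1, -0.27 to 0.77 for Ccnd2, -0.092 to 0.84 for Ccnd3, -0.23 to 0.70 for Ccne2, -0.36 to 0.48 for Cdk2, -0.47 to 0.38 for Cdkn1a, -0.18 to 0.48 for Cdkn1b, -0.072 to 1.58 for Mcm2, -0.15 to 0.24 for Mcm5, -0.93 to 0.32 for Mki67, -1.08 to 0.26 for Nusap1, -0.91 to 0.085 for Pcna, -0.13 to 0.91 for Top2a, -0.37 to 0.88 for Tpx2 and -0.28 to 0.78 for Ube2c. Among genes that kept their sign when 1 array was left out, the differences ran for Bub1 from 0.743 to 1.805, Cdk4 from -1.516 to -0.43, Kif11 from -1.303 to -0.409, Rrm2 from 0.002 to 0.849, Ccna2 from 0.073 to 0.813, Cdkn2d from 0.128 to 0.693 and Plk1 from -0.511 to -0.182. The cause was not tested.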
